A study of Mus musculus with 10 samples.

Results

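The chymotrypsin and elastase genes of the mouse pancreas were followed here in newborn mice that make interleukin-23 (IL-23) in the skin. The members were chosen by symbol: Ctrb1, Ctrc and Ctrl for the chymotrypsins, and Cela1, Cela2a, Cela3a and Cela3b for the elastases. Of these 7 symbols, 6 were listed among the 24062 genes of the count files and all 6 had enough counts to be tested. Cela3a was not listed under that name. RefSeq gives Gm13011 as an older symbol of Cela3a, and the row with that symbol is described separately below.

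RNA was sequenced from the pancreas of 5 WT and 5 KSR23 mice on the C57BL/6 background at postnatal day 5 (P5). KSR23 mice carry the R23 allele, an IL-23 cassette in ROSA26 that stays silent until cre removes a floxed STOP, and a cre transgene under the K14 promoter, so that keratinocytes of the skin are the intended source of the cytokine and the pancreas itself is not the tissue targeted. K14 is also active in other stratified epithelia. The controls were described as WT littermates, and their alleles were not given further. The labels number the libraries within a group, and 1 library per mouse is assumed.

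Chymotrypsins and elastases are serine proteases made by the acinar cells of the exocrine pancreas. They are stored as inactive zymogens in granules, secreted into the duct and activated in the gut by trypsin, which is itself switched on by enteropeptidase. Chymotrypsins cut proteins next to large hydrophobic residues and pancreatic elastases mostly next to smaller ones. Many acinar enzyme genes are bound by the PTF1 complex, in which Ptf1a pairs with an E-protein and with Rbpjl. This complex reads an E-box (CANNTG) followed by a TC box (TTTCCC).

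The promoters of the 2 members with the largest falls, Ctrl and Cela1, and of the 2 with the smallest changes, Cela3b and Ctrb1, are printed to show where such motifs lie in genes that behaved differently. Each runs 5′ to 3′ on the minus strand, the coding strand of every member, from 250 bases before to 50 bases after the RefSeq start (GRCm38.p6, the assembly also called mm10). The windows are chr8:105933813-105934112, chr15:100687871-100688170, chr4:137430471-137430770 and chr8:111690961-111691260. Capitals mark TTTCCC and GATAAG on either strand, and the E-box where it stands 4 bases before TTTCCC.
Ctrl: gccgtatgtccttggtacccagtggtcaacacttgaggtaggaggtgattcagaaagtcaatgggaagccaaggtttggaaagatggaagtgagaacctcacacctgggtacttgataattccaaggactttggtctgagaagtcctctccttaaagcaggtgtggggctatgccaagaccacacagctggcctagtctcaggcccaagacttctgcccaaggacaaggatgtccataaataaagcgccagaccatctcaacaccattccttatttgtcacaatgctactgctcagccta
Cela1: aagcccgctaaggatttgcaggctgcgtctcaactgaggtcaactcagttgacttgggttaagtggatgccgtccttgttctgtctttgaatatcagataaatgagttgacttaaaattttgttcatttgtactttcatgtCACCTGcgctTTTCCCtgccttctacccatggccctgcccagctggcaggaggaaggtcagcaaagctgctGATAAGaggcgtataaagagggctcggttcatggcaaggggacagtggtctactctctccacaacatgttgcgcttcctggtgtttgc
Cela3b: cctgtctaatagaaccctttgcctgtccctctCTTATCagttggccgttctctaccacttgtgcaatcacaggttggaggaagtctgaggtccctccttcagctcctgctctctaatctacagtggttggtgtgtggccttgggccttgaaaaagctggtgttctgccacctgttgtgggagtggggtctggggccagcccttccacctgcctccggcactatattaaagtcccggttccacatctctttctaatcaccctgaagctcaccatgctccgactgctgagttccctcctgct
Ctrb1: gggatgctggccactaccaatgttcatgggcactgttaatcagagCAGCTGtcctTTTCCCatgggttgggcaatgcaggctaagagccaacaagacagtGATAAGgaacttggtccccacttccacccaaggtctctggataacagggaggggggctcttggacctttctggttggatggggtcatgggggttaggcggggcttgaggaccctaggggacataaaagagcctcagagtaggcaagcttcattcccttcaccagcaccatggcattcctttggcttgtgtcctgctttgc

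The composite CANNTGNNNNTTTCCC, searched on both strands, was present in the promoters of Cela1 and Ctrb1, 2 of the 6 promoters of this family in the RefSeq table (Cela3a included, Ctrc with no entry). It was present in 0.0944% of all 32851 promoters of the same length. Its E-box began 109 bases before the start in Cela1 and 205 bases before it in Ctrb1. The log2 fold changes of these 2 genes, given below, were -2.53 for Cela1 and -0.13 for Ctrb1. Other spacings of the 2 boxes were not searched, and the part of the composite in the changes was not tested. CANNTG alone was in all 6 promoters and in 72.3% of all promoters. TTTCCC, a part of the composite, was in 4 of the 6 and in 25.2% of all. GATAAG, the letters read by GATA factors, was in 5 of the 6, all but Ctrl, and in 7.44% of all. TTCNNNGAA, the letters read by STAT factors, was in none of the 6 windows and in 8.3% of all. These motifs were chosen with the promoters in view, and a match is a description of the letters and not a binding site.

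Of the 6 members tested, 5 were lower in KSR23 than in WT pancreas, none was higher, and Ctrb1 did not pass the test. Lower genes made up 14.8% of the 13882 genes tested and higher genes 16.2%. In 4 members the fall was larger than 1 on the log2 scale, against 1.64% of all genes tested. In 5 members every KSR23 mouse lay below every WT mouse, against 8.74% of all genes tested. The median log2 fold change of the 6 members was -1.62, beside -0.01 over all genes tested. Calls came from the quasi-likelihood F test of edgeR, adjusted by Benjamini-Hochberg over all genes tested, and levels are CPM, a gene's counts relative to library sizes scaled by the trimmed mean of M values (TMM). Fewer acinar cells and less RNA per acinar cell cannot be told apart in bulk tissue.

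**Figure D1:**
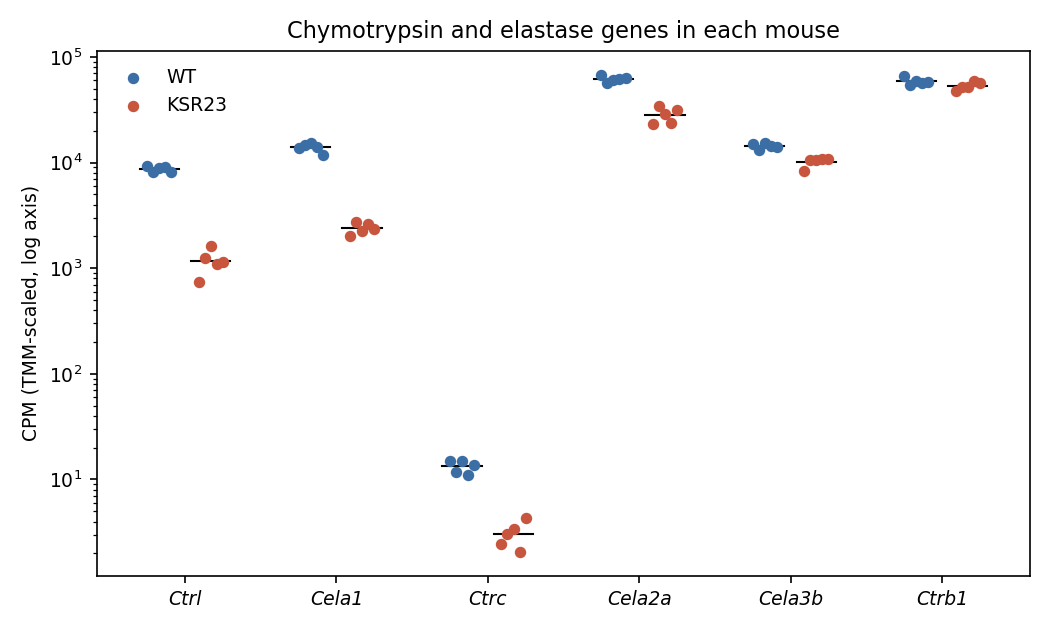
Each point is the CPM of a gene in 1 mouse on a log axis, WT in blue and KSR23 in red, with a black bar at the mean of 5 mice. The groups were apart for Ctrl, Cela1, Ctrc, Cela2a and Cela3b and overlapped for Ctrb1.

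The 3 chymotrypsin genes covered the whole range of the response. Ctrl, a chymotrypsin-like protease (chr8:105932003-105933862), had 9251, 8111, 8892, 9163 and 8079 CPM in WT mice 1 to 5. It had 742, 1251, 1621, 1091 and 1137 CPM in KSR23 mice 1 to 5. Every KSR23 mouse was far below every WT mouse, KSR23 1 was the lowest and KSR23 3 the highest of its group. The mean fell 7.45-fold, from 8699 ± 567 to 1168 ± 316 CPM (SD, n = 5 per group), with a log2 fold change of -2.90 (SE 0.158, edgeR adjusted p = 1.81e-10). Among the 13882 genes tested, this fall ranked 8.

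Ctrc, chymotrypsin C, is known for cleaving trypsinogens and other zymogens. Its level was low, with 425, 345, 424, 339 and 371 counts in WT mice 1 to 5 and 98, 103, 61, 83 and 244 counts in KSR23 mice 1 to 5. KSR23 5 was the deepest library and stayed the highest of its group after scaling, at 4.36 CPM against 2.07 to 3.41 CPM in the others. The groups did not overlap, with 13.3 ± 1.81 CPM in WT and 3.07 ± 0.887 CPM in KSR23 (SD, n = 5 each). Its log2 fold change was -2.11 (SE 0.171, edgeR adjusted p = 3.52e-08). RefSeq calls Ctrc a transcribed pseudogene in the reference strain, while GENCODE M21 lists it as protein coding at chr4:141814962-141846359, a span that includes Cela2a.

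Ctrb1, chymotrypsinogen B1 (chr8:111686519-111691010), was the most abundant chymotrypsin transcript. It had 65351, 54717, 58874, 56961 and 57826 CPM in WT mice 1 to 5, and 47445, 51418, 52297, 59447 and 57124 CPM in KSR23 mice 1 to 5. The groups overlapped, with 3 of the 5 KSR23 mice below the lowest WT mouse. The means were 58745 ± 3997 and 53546 ± 4768 CPM (SD, n = 5 each), and the log2 fold change of -0.13 (SE 0.108) did not pass the test (edgeR adjusted p = 0.371, exact two-sided permutation p = 0.0952), which does not show that the level was the same. Without KSR23 4 the same permutation test gave p = 0.0476. Ctrl and Ctrb1 lie on the same chromosome, and their encoded proteins are the most alike of the chymotrypsins, with 55.1% identity in the GENCODE translations, yet they stood at opposite ends of the family's response.

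Among the elastases, Cela1 fell most. Cela1 (chr15:100674421-100687921) had 13878, 14789, 15266, 13919 and 11801 CPM in WT mice 1 to 5. In KSR23 mice 1 to 5 it had 2039, 2740, 2250, 2640 and 2351 CPM. The lowest WT mouse was above the highest KSR23 mouse 4.31-fold. The mean fell 5.79-fold, from 13931 ± 1329 to 2404 ± 286 CPM (SD, n = 5 each), with a log2 fold change of -2.53 (SE 0.115, edgeR adjusted p = 1.37e-11).

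Cela2a was the most abundant elastase transcript and showed an intermediate change. Cela2a (chr4:141814962-141826160) had 67997, 56233, 60567, 61137 and 62954 CPM in WT mice 1 to 5, and 23361, 34459, 28760, 23614 and 31169 CPM in KSR23 mice 1 to 5. The KSR23 mice were more spread, with KSR23 1 and KSR23 4 low and KSR23 2 high, and none reached the WT range. The mean went from 61778 ± 4263 to 28273 ± 4815 CPM (SD, n = 5 each), a log2 fold change of -1.13 (SE 0.125, edgeR adjusted p = 1.87e-06).

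Cela3b had the smallest fall that passed the test. Cela3b (chr4:137420999-137430540) had 14858, 13047, 15466, 14273 and 13911 CPM in WT mice 1 to 5, and 8284, 10522, 10625, 10697 and 10782 CPM in KSR23 mice 1 to 5. In KSR23 the mice lay close together except for KSR23 1, which was lower. The mean fell from 14311 ± 921 to 10182 ± 1065 CPM (SD, n = 5 each), a log2 fold change of -0.49 (SE 0.104, edgeR adjusted p = 0.00165). The falls of Cela2a and Cela3b were not called against a null hypothesis of a log2 change of at most 1, while those of Ctrl, Cela1 and Ctrc were.

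The row named Gm13011, which RefSeq equates with Cela3a (chr4:137401554-137409791), held few counts. There were 57, 90, 76, 86 and 74 counts in WT mice 1 to 5 and 37, 49, 15, 76 and 50 counts in KSR23 mice 1 to 5. On the CPM scale the groups did not overlap, at 2.66 ± 0.402 in WT and 1.20 ± 0.458 in KSR23 (SD, n = 5 each), with a log2 fold change of -1.13 (SE 0.244, edgeR adjusted p = 0.00189). Cela3a and Cela3b are near-identical neighbours, with 89.2% identity between their translations. Of the 75-base windows of Cela3b, the length of the reads, 21.0% also occur in Cela3a, so reads could be lost from or split between the pair, and both values are uncertain in that respect.

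For Cela2a, 23.7% of the windows also occur in an annotated transcript of Ctrc. Here the 2 genes are not copies at separate places but overlap in their annotated exons. Reads in such an overlap can be set aside as ambiguous between genes. Over all genes, ambiguous reads numbered 349556 to 438354 in WT and 189230 to 543048 in KSR23 libraries. The part of Cela2a in them is not known. Casp9, a caspase gene on the opposite strand, overlaps an exon of Cela2a. Its own log2 fold change was -0.69 (SE 0.0961, edgeR adjusted p = 2.70e-05) at 36.3 ± 2.63 CPM in WT (SD, n = 5), and whether the counting used strand was not given in the sources used here. Ctrb1, Ctrl, Cela1 and the longest coding transcript of Ctrc had no window shared with another gene. The windows shared with Cela2a lie in another annotated transcript of Ctrc, and counting was per gene. Ctrc had 339 to 425 counts in WT libraries beside 1637410 to 1940017 for Cela2a. The part of Cela2a reads in the level and the fall of Ctrc is not known, so both are uncertain in that respect. Alignments that were not unique amounted to 1.07 to 1.26 per counted read in WT and 0.667 to 0.787 in KSR23 libraries (exact permutation p = 0.00794), and their part in these values was not tested.

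Because counts of 2 genes in the same mouse share their library size, the ratio between them does not depend on scaling. Of the 15 pairs among the 6 members, 13 had ratios that differed between KSR23 and WT mice without overlap (exact two-sided permutation test, p = 0.00794, the smallest this design gives, and adjusted p = 0.00916 over the 15 pairs). Each ratio was taken within a mouse, but the comparison was between different mice of the WT and KSR23 groups. The members therefore differed in the size of their change between the groups, and no fall was followed within a mouse.

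The ratio of Cela2a to Ctrb1 was the tightest in WT mice, with a log2 ratio of 0.07 ± 0.04 (SD, n = 5), and ranged from 0.04 to 0.12. In KSR23 mice it was -0.93 ± 0.27 (SD, n = 5), from -1.33 to -0.58. The difference of -1.01 was larger than the spread in either group (exact permutation, adjusted p = 0.00916 over 15 pairs). In the WT pancreas these 2 transcripts were thus near parity in counts, and in KSR23 mice Ctrb1 was ahead in each of the 5 mice.

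The largest shift was that of Ctrl against Ctrb1, a difference of -2.80 in log2 ratio, and the smallest that passed was that of Cela3b against Ctrb1, at -0.36. Within the elastases, Cela1 lost against Cela3b by a log2 difference of -2.04 and Cela2a against Cela3b by -0.65 (exact permutation, adjusted p = 0.00916 for each). The translations of Cela1 and Cela3b share 56.5% of residues, the highest identity among pairs of the 6 members. Likeness in sequence did not go with likeness in change for this pair or for Ctrl and Ctrb1. Cela2a and Cela3b share nearly as much, 55.8%, and had the smaller shift of -0.65. A relation between sequence and change over all pairs was not tested.

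Ctrl against Cela1 (-0.40, adjusted p = 0.0680) and Cela1 against Ctrc (-0.39, adjusted p = 0.135) were not called in the exact permutation test. The first pair passed without KSR23 3, at -0.55 (exact permutation, adjusted p = 0.0170), and the second without KSR23 4, also at -0.55 (exact permutation, adjusted p = 0.0340). With all libraries and the ratio of mean CPM in place of the mean log ratio, both passed (adjusted p = 0.0170 and 0.0476 by exact permutation), so that all 15 pairs were called. The calls of these 2 pairs thus depended on the measure and on single libraries, and the misses do not show that the 3 genes fell alike.

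**Figure D2:**
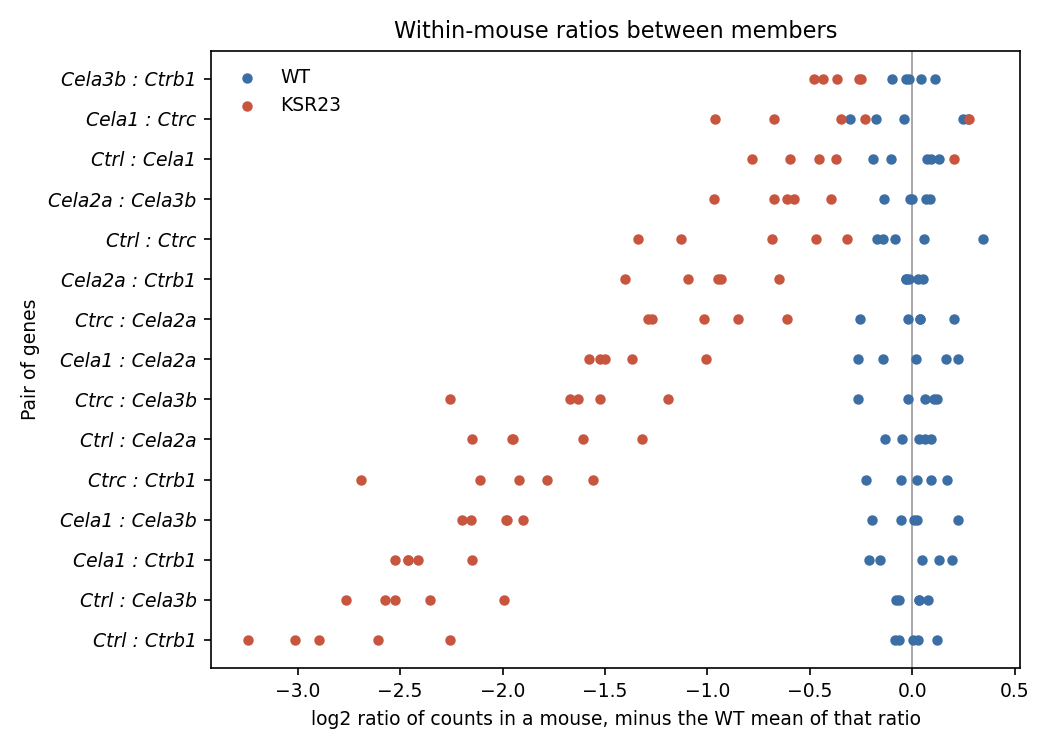
Each point is the log2 ratio of the counts of 2 genes in 1 mouse, set to 0 at the WT mean of that pair, with WT in blue and KSR23 in red (5 mice each) and pairs ordered by the difference between groups. In 13 of the 15 pairs all KSR23 mice lay to the left of all WT mice, and the exceptions were Cela1 with Ctrc and Ctrl with Cela1.

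The make-up of this protease pool changed accordingly. The 6 members together took 15.2% ± 0.714 of gene counts in WT and 9.85% ± 0.565 in KSR23 pancreas (SD, n = 5 each), a difference of -5.38 percentage points (exact permutation p = 0.00794, the smallest this design gives). Leaving the 50 highest other genes out of the total, the shares were 31.4% and 21.6% with the same p. Ctrb1 made up 37.3% ± 0.556 of the members' sum in WT and 56.1% ± 3.64 in KSR23 mice (SD, n = 5 each, exact permutation p = 0.00794), whereas its share of all gene counts was 5.68% and 5.52% (exact permutation p = 0.492). The share of Cela3b in the sum went from 9.09% to 10.6%. Cela2a went from 39.2% to 29.5%, Cela1 from 8.87% to 2.51% and Ctrl from 5.53% to 1.22%, each without overlap between groups. Since these shares add to 100%, a gain of one member follows from losses of others.

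**Figure D3:**
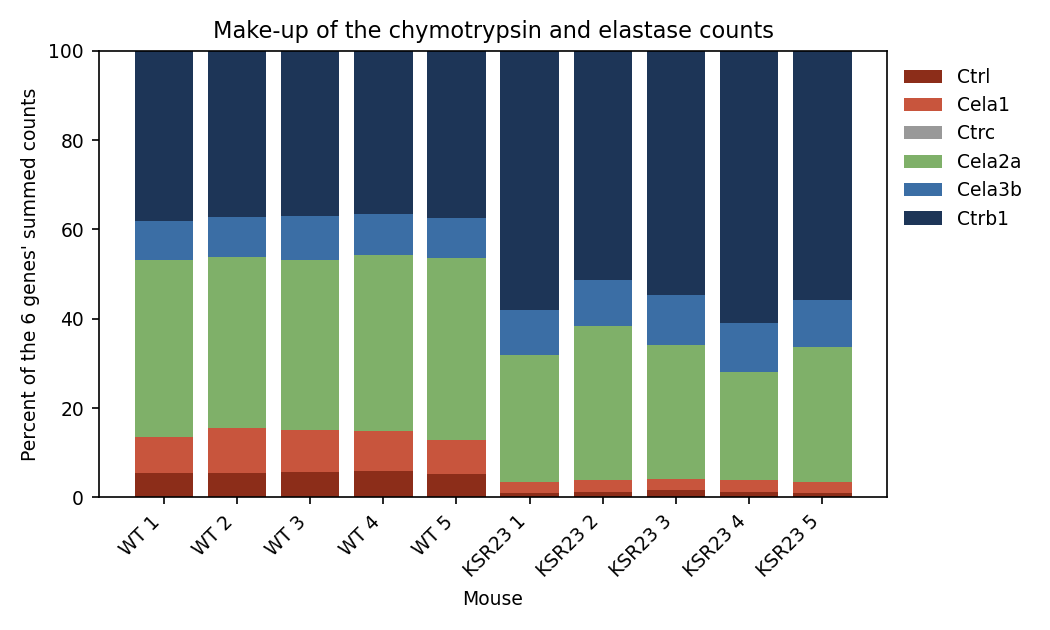
Stacked bars give the percent of the 6 genes' summed counts held by each gene in each of the 10 mice, and Ctrc is too small to be seen. Ctrb1, at the top of each bar, held 36.6% to 38.1% in WT and 51.2% to 61.0% in KSR23 mice.

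To compare levels between genes, CPM was divided by the length of the longest coding transcript. In WT the mean level was 66908 CPM per kb for Ctrb1, 57736 for Cela2a, 15455 for Cela3b, 12573 for Cela1, 9896 for Ctrl and 14.0 for Ctrc. In KSR23 the mean level was 60987 CPM per kb for Ctrb1, 26423 for Cela2a, 10996 for Cela3b, 2170 for Cela1, 1329 for Ctrl and 3.23 for Ctrc. Each gene was above the next in all 5 mice of each group. Ctrb1 stood 1.16-fold above Cela2a in WT and 2.36-fold above it in KSR23 mice. With the median transcript length or with uniquely mappable positions as the length, the order was kept in the 5 KSR23 mice but not in the WT mice, where neighbours changed places.

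The coefficient of variation was between 6.43% and 13.6% over the 6 members in WT and between 8.90% and 28.9% in KSR23. KSR23 1 had the lowest CPM of its group for 5 of the 6 members, all but Ctrc, and was the highest for none. Without this mouse the log2 fold changes were -2.78 for Ctrl, -2.49 for Cela1, -2.04 for Ctrc, -1.07 for Cela2a and -0.43 for Cela3b, with each of the 5 still called by edgeR, and -0.10 for Ctrb1.

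The genes whose profile over the 10 mice was nearest to each member were sought among 613 genes outside the family with a mean of at least 100 CPM, by the root mean square difference in centred log2 CPM. This measure includes the difference between the groups, so a gene with a like fold change tends to be near. Likeness between mice within a group was not tested. Aqp12, an acinar water channel with a log2 fold change of -2.63, was nearest to Ctrl (0.185 on the log2 scale) and to Cela1 (0.310). Second nearest outside the family were Vtn, vitronectin, to Ctrl (0.315) and syncollin (Sycn) to Cela1 (0.375). Gc, which encodes the vitamin D binding protein, was nearest to Ctrc (0.306), before Sycn (0.319). Reep5, an endoplasmic reticulum shaping protein, was nearest to Cela2a (0.0891), before the mitochondrial thiolase gene Acat1 (0.128). Tecr, an enzyme of fatty acid elongation, was nearest to Cela3b (0.0813), before the pancreatic ribonuclease gene Rnase1 (0.0900). Fkbp4, a co-chaperone, was nearest to Ctrb1 (0.0684), before the ribosomal protein gene Rpsa (0.0694). For comparison, Ctrl and Cela1 were 0.321 from each other, nearer than Sycn was to Cela1. Ctrl was 1.42 from Ctrb1 on the same measure, and Cela3b, the closest member to Ctrb1, was 0.198 from it.

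Neighbours were the nearest tested genes on each side that lie wholly outside a member. Casp9, which overlaps Cela2a and had a log2 fold change of -0.69, was therefore not among them. Of these 10 neighbours outside the family, 4 rose, 1 fell and 5 did not pass, with log2 fold changes from -0.60 to 1.08. Psmb10, a proteasome subunit gene 1873 bases from Ctrl, had a log2 fold change of -0.60 (SE 0.0877, edgeR adjusted p = 4.72e-05), and Pskh1, 225 bases away on the other side, rose by 0.25 (SE 0.0924, edgeR adjusted p = 0.0462). Bin2, near Cela1, rose by 1.08 (SE 0.220, edgeR adjusted p = 0.00122), while Galnt6, on the other side of Cela1, had a log2 fold change of 0.06 (SE 0.256, edgeR adjusted p = 0.886).

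The proteases that act with the members changed in both directions. Of 10 tested genes for trypsinogens, carboxypeptidases and kallikrein 1, 4 rose, 5 fell and 1 did not pass, with a median log2 fold change of -0.29. Prss3, a trypsinogen, had the largest rise, from 3786 ± 241 to 7196 ± 880 CPM (SD, n = 5 each, log2 fold change 0.93, edgeR adjusted p = 2.13e-06). Klk1, the tissue kallikrein, had the largest fall, from 1386 ± 67.3 to 519 ± 101 CPM (SD, n = 5 each, log2 fold change -1.42, edgeR adjusted p = 2.00e-08). Tmprss15, which encodes enteropeptidase and is made in the gut, was below the count minimum. Trypsinogen genes resemble each other in sequence, and windows shared between them were not counted here. Reads could be lost from or split between them, so their single values are uncertain.

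The other secreted enzymes moved with the members. Of 10 tested lipase, amylase and nuclease genes, 9 fell, none rose and Dnase1 did not pass, with a median of -0.58. Pnlip, the pancreatic triglyceride lipase, had the largest fall, from 58.2 ± 6.03 to 16.2 ± 2.90 CPM (SD, n = 5 each, log2 fold change -1.85, edgeR adjusted p = 6.39e-10). Of the inhibitors of these proteases, 4 of 12 listed genes could be tested, and 2 rose and 2 did not pass. Slpi, the secretory leukocyte protease inhibitor, rose from 12.6 ± 1.57 to 33.0 ± 9.61 CPM (SD, n = 5 each, log2 fold change 1.39, edgeR adjusted p = 3.01e-06). Serpinb1a, an intracellular inhibitor of elastase-like proteases, was the other that rose (0.60). Serpina3n and Pzp, both inhibitors of plasma, were below the count minimum in at least 1 WT library and not tested, with 0 to 11 counts of Serpina3n in WT and 27 to 140 in KSR23, and 0 to 4 counts of Pzp in WT and 14 to 42 in KSR23. Spink3, the mouse gene now called Spink1 and the trypsin inhibitor of pancreatic juice, was at 1488 ± 390 and 1547 ± 87.4 CPM (SD, n = 5 each, edgeR adjusted p = 0.786).

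Genes of the zymogen granule split. Of 11 tested, 3 rose, 4 fell and 4 did not pass, with a median of -0.03. Gp2, the main glycoprotein of the granule membrane, rose from 3149 ± 265 to 11298 ± 1720 CPM (SD, n = 5 each, log2 fold change 1.84, edgeR adjusted p = 1.22e-09). Sycn, syncollin, a protein on the inner face of that membrane, fell from 3616 ± 293 to 972 ± 69.9 CPM (SD, n = 5 each, log2 fold change -1.89, edgeR adjusted p = 3.28e-11).

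Of 11 tested transcription factor genes of acinar cells, 2 rose, 3 fell and 6 did not pass, with a median of -0.03. Xbp1, a factor of the secretory stress response, rose by 0.91 on the log2 scale (SE 0.0902, edgeR adjusted p = 4.70e-07). Ptf1a fell by 0.50 (SE 0.111, edgeR adjusted p = 0.00218) and Rbpjl, its partner, by 0.40 (SE 0.0771, edgeR adjusted p = 0.000673). Nr5a2, a nuclear receptor of acinar genes, had a log2 fold change of 0.05 (SE 0.107, edgeR adjusted p = 0.752). Of 7 chymotrypsin-like and elastase genes of blood cells, 3 were tested and none passed. Cma1, the mast cell chymase, was at 14.8 ± 1.70 and 15.8 ± 3.88 CPM (SD, n = 5 each, edgeR adjusted p = 0.704). Elane, neutrophil elastase, was at 0.697 and 2.13 CPM, with SDs as large as the means.

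**Figure D4:**
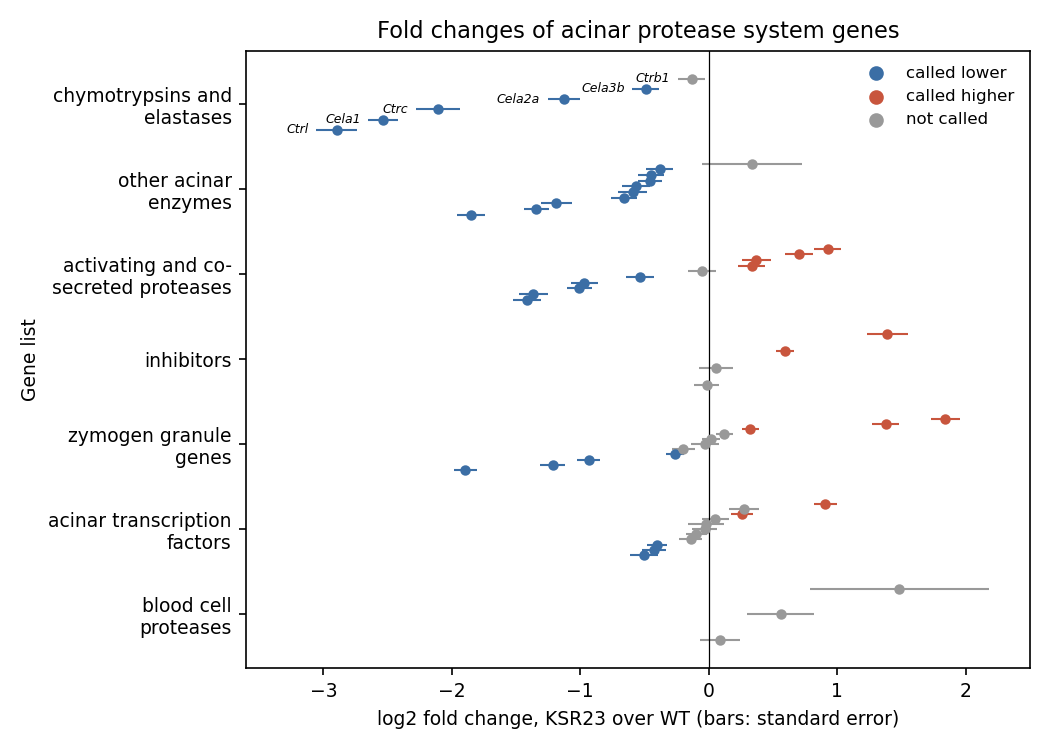
Points are log2 fold changes of KSR23 over WT for each tested gene, with bars for the standard error (5 mice per group), blue for called lower, red for called higher and grey for not called. The chymotrypsins and elastases reached from -2.90 to -0.13, the other acinar enzymes called lower from -1.85 to -0.38, and the remaining lists lay on both sides of 0, except the 3 blood cell proteases, all above it and not called.

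Markers of pancreatic tissue were present in every library. The summed acinar markers were at 109308 to 122250 CPM in WT and 65862 to 86254 CPM in KSR23, with 6 of 7 genes lower. Most of this sum was Cel, with a mean of 84453 CPM in WT and 56028 CPM in KSR23. All 7 also stand in the lists above, where other acinar genes fell or, like Gp2 and Prss3, rose. The sum is therefore not a measure of acinar RNA as a whole. Of 6 duct markers 5 rose (406 to 451 CPM in sum in WT and 563 to 646 CPM in KSR23), and of 7 myeloid markers 7 rose (213 to 287 CPM and 259 to 599 CPM). Of 7 islet markers 6 fell and 1 rose, from 8113 to 11373 CPM in sum in WT and from 4995 to 6296 CPM in KSR23. Of 6 stroma markers 1 rose and 5 did not pass, and of 3 endothelium markers 1 rose and 1 fell. Of 5 erythroid markers, 4 haemoglobin genes were at 0 in every library and Alas2 did not pass. Alas2 was at 40.3 CPM in WT and 35.0 CPM in KSR23, and the 0 counts do not show that haemoglobin RNA was absent. The part of these cell types in the members' values was not tested. Gene counts per library ran from 26830235 to 33189132 in WT and from 16715976 to 57784136 in KSR23, and no fall of a member was lost when any single library was left out.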

How the data were processed

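Pancreas RNA of 5 WT and 5 KSR23 mice was primed with oligo-dT, amplified by PCR without molecular identifiers and sequenced as single 75-base reads. The deposited values are whole-number counts per gene. According to the methods and the submitters' processing notes, the authors aligned reads to mm10 with TopHat2 2.1.0 and counted protein-coding genes with HTSeq 0.6.1p1. The annotation release was not given in the sources used here. Rows of unassigned reads were left out of library sizes.

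A gene entered the fit where no library had fewer than 5 of its counts. The fit used edgeR 4.0.16 (R 4.3.3, TMM, quasi-likelihood F test, adjusted p under 0.05), as tested on simulated data. The standard error is the log2 fold change over the square root of F. Single values, shares and ratios were compared by exact two-sided permutation of the group labels, for which the smallest p is 0.00794. Counting and PCR error without identifiers are not separable, and p-values measure the spread between these libraries. Libraries of a group differed beyond sampling noise (chi-square per degree of freedom at least 11.4). Positions and 75-base windows came from GENCODE M21, promoters from RefSeq. Translations were aligned with Biopython 1.88.

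Besides the members and the regulators Ptf1a, Rbpjl, Nr5a2 and Spink1, the genes named with their values are those with the largest rise and fall among the called genes of each list, and the 2 genes nearest to each member in profile. Serpinb1a, Serpina3n, Pzp, Cma1, Elane, Dnase1, Tmprss15, Alas2, Casp9 and the genes next to members were named after their values were seen. The members and lists were chosen with earlier results of these data known. Alternatives were DESeq2 1.42.0, other scalings, other count minimums, a replicate block, another length and leaving out each library.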

Additional observations from a re-analysis of the deposited data

Results flagged for a closer look

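Of 40 groups of 5 values looked at for a sample far from the others, 2 held one, and chance alone gives about 2 (1 in 20). Both were KSR23 1. Its Cela3b level was 8284 CPM, while the other KSR23 mice had 10520 to 10780 CPM. The 6 members took 8.854% of its gene counts (95% Wilson interval 8.845% to 8.863%, counting error only), while they took 9.938% to 10.22% in the other KSR23 mice. Without KSR23 1 the log2 fold change of Cela3b was -0.43 (edgeR adjusted p = 0.00239) and the difference in the members' share was -5.13 percentage points (exact permutation p = 0.0159, 4 against 5 mice).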

How the results depend on the processing

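Over 19 alternatives no member changed sign. Log2 fold changes lay between -3.04 and -2.78 for Ctrl, -2.60 and -2.44 for Cela1, -2.30 and -1.99 for Ctrc, -1.21 and -1.04 for Cela2a, -0.52 and -0.40 for Cela3b, and -0.17 and -0.04 for Ctrb1, which was called under none of them. Tested against a log2 fold change of 1, 3 members were called lower in place of 5. Of the other genes of the acinar protease system, 5 were called lower in place of 21. Genes called higher are not in these counts. The order of levels per kb, which held in 10 mice, held in 5 with the median transcript length and in 5 with unique windows as length.

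Leaving out each library in turn gave 5 called members, 5 to 6 in the permutation test of single values, 13 to 14 pairs (15 with the ratio of mean CPM and all libraries), 21 to 22 lower genes of the lists, and a difference in the members' share between -5.56 and -5.11 percentage points.

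Deviations of same-numbered WT and KSR23 mice were little correlated (from -0.11 to 0.07). This does not show whether such mice shared a litter or a batch, and the labels give no pairing. With a replicate block, edgeR still called 5 members. With a replicate block in the pair ratios, an exact sign-flip test called 0 of 15 pairs in place of 13, since its smallest possible p is 0.0625.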
